A study of Homo sapiens with 16 samples.

Results

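The enantiomers (2R,6R)-hydroxynorketamine and (2S,6S)-hydroxynorketamine (HNK), both given together with estradiol (E2), were compared in the human cell line HMC3. The comparison rests on 4 of the 16 RNA-seq libraries of the study, chosen by their treatment labels: 2 libraries of cells that received E2 plus (2R,6R)-HNK and 2 libraries of cells that received E2 plus (2S,6S)-HNK. E2 was present at 0.1 nM and each HNK at 400 nM for 24 h, so dose and time were matched. The names give the structural difference: the compounds have the same atoms and bonds and carry the opposite configuration at both stereocentres. The other groups of 2 libraries each were vehicle, E2 alone, ketamine, E2 plus ketamine and each HNK without E2, and all cells had been held in hormone-depleted and then serum-free medium before treatment. The sources do not say whether the 2 libraries of a treatment came from separate cultures, so the p-values measure only the spread between these libraries, which may be technical.

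HNK enantiomers are formed in the body from ketamine, which is used as an anaesthetic and as a rapid antidepressant, and E2 is the main circulating estrogen, which acts through nuclear estrogen receptors and a membrane receptor. HMC3 is an established, immortalized line described as human microglia. Microglia are the resident macrophages of the brain and are known by genes such as CX3CR1, P2RY12 and PTPRC. In the 4 libraries 15 of 18 microglial markers had a mean below 1 CPM (counts divided by the scaled library size), and 5 of them had no read in any of the 4. AIF1 averaged 0.0268 CPM, CX3CR1 0.0123 CPM and CSF1R 0.458 CPM, whereas CD68, a lysosomal glycoprotein of macrophages and other cells, averaged 21.1 CPM. The collagen gene COL1A1 averaged 4108 CPM. The cells are therefore named here by their line rather than by a cell type.

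The 4 libraries held 75331706 and 72264098 counts with E2 plus (2R,6R)-HNK, and 76709236 and 60036748 counts with E2 plus (2S,6S)-HNK, within the range of 55300614 to 81646165 over all 16. Of 25370 genes in the table, 16004 had enough reads to be tested. Libraries of 1 treatment were close, with a common biological coefficient of variation of 2.81%. Each of the 4 libraries lay nearest to its own replicate over all tested genes, but over the 500 most variable genes both E2 plus (2R,6R)-HNK libraries lay slightly nearer to a library of E2 plus (2S,6S)-HNK (22.9 and 22.6) than to each other (23). Over group means of log2 CPM, E2 plus (2R,6R)-HNK lay at a distance of 35.8 from (2S,6S)-HNK without E2, 45.1 from E2 plus (2S,6S)-HNK, 56.4 from (2R,6R)-HNK without E2 and 59.1 from E2 alone. The order of the first 2 turned over the 500 most variable genes (18.7 and 16.6), and after the GC and length correction described below they were nearly equal (33.5 and 33.9), while the distances to the other 2 stayed larger. In 1202 of 16004 genes (7.51%) the 6 libraries of both combinations with E2 and of (2S,6S)-HNK alone did not overlap the 10 libraries of the remaining 5 conditions. No other division of the conditions was counted, and this one was chosen after the values were seen. The comparison of the enantiomers under E2 lies inside that set of 6 libraries. The comparisons with E2 alone and without E2 cross its border. Which libraries shared a sequencing lane or a day of culture is not given in the sources used here, so treatment and any batch that covers whole conditions cannot be told apart.

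The genes that differed most between the enantiomers at levels of at least 5 CPM were genes of zinc handling. Metallothioneins are small cysteine-rich proteins that bind zinc and copper. Their genes, together with the zinc exporter gene SLC30A1, are known targets of the zinc-sensing factor MTF1, which binds short metal response elements in promoters, and the zinc importer gene SLC39A10 is known to be held down by the same factor. With E2 plus (2R,6R)-HNK the metallothionein genes MT2A, MT1E and MT1X were higher and SLC39A10 was lower than with E2 plus (2S,6S)-HNK. These were the only 4 genes with an adjusted p under 0.05, a log2 fold change of 1 or more (higher or lower), 5 CPM or more on average and libraries that did not overlap. Another 6 genes passed the same limits of change at 1 to 5 CPM, among them MT1F (mean 3.71 CPM) and SLC30A1 (mean 4.42 CPM).

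To show how these promoters read, the 250 bases before the transcription start are given for 3 of the genes, from RefSeq on GRCh38.p14, with capitals for every match to the metal response element core TGCACNC or TGCGCNC on either strand. MT2A (chr16:56608334-56608583, plus strand) holds 7 matches, 5 of them on the strand shown. MT1X (chr16:56682220-56682469, plus strand) holds 4, and SLC30A1 (chr1:211579162-211579411, minus strand) holds 1. Of 11212 promoters of tested genes, 32.8% held 1 or more such matches in a window of this length and 0.482% held 4 or more. Neither window of the 2 RefSeq starts of SLC39A10 held a match. A match describes letters in the window and is not a measured binding site.
MT2A: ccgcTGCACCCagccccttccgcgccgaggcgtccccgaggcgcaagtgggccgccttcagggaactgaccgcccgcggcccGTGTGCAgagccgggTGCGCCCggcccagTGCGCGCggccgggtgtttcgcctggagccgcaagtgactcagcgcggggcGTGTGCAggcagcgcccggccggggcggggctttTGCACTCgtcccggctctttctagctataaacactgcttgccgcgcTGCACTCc
MT1X: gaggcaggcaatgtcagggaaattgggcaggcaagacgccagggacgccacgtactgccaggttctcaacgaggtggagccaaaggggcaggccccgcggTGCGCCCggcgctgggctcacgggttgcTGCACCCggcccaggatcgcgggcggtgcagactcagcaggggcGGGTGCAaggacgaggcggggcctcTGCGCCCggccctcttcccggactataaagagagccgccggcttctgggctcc
SLC30A1: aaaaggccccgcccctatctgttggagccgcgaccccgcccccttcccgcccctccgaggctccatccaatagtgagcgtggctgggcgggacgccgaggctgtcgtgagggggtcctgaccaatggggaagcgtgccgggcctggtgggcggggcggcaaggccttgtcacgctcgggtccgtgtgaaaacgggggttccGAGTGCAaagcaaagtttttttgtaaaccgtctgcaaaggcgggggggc

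MT2A (GRCh37 chromosome 16, 56642496 to 56643409) was measured at 344 and 353 CPM with E2 plus (2R,6R)-HNK and at 165 and 161 CPM with E2 plus (2S,6S)-HNK. The groups did not overlap, and the log2 fold change of (2R,6R)-HNK over (2S,6S)-HNK was 1.1 ± 0.03 (SE, adjusted p = 2.45e-33, quasi-likelihood test of edgeR, adjusted by Benjamini-Hochberg). It was the gene with the smallest p of all those tested. Under E2, 106 of the 16004 genes (0.662%) passed both the adjusted p and the limit of 1, 48 (0.3%) higher and 58 (0.362%) lower with (2R,6R)-HNK. Of these 106 genes, 96 averaged below 1 CPM. The number passing was 52 with DESeq2 on all libraries, 29 with DESeq2 on the 4 libraries and 35 with at least 10 counts in every library.

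MT1E (chromosome 16, 56659387 to 56661024) stood at 49.4 and 50.8 CPM with E2 plus (2R,6R)-HNK against 19.1 and 17.8 CPM with E2 plus (2S,6S)-HNK, a log2 fold change of 1.44 ± 0.05 (adjusted p = 2.73e-29). MT1X (chromosome 16, 56716382 to 56718108) stood at 8.81 and 8.73 CPM against 3.29 and 3.31 CPM, a log2 fold change of 1.41 ± 0.11 (adjusted p = 1.28e-15). MT1F (chromosome 16, 56691643 to 56694610) stood at 5.0 and 5.06 CPM against 2.44 and 2.33 CPM, a log2 fold change of 1.07 ± 0.13 (adjusted p = 3.65e-10). MT1E, MT1X and MT1F, neighbours of MT2A in the metallothionein cluster, were thus higher in both (2R,6R)-HNK libraries than in either (2S,6S)-HNK library. Over all genes the groups did not overlap for 74.3%. MT1L, a member of the same cluster, did not share the size of these differences, at 26.6 and 29.4 CPM against 24.9 and 24.5 CPM. Its log2 fold change was 0.18 ± 0.06 (adjusted p = 0.0068), and 0.03 after the GC and length correction described below, where the call was lost. The call was also lost with DESeq2 on the 4 libraries and without replicate 2 of E2 plus (2R,6R)-HNK. Leaving out 1 library gave 0.11 to 0.25. MT1G passed the test only at a level near no reads, with 7 and 8 counts against 0 and 2, and lost its call under 8 of 12 alternatives. MT1A, at 11 and 10 counts against 13 and 6, overlapped and did not pass. MT3, at 50 and 36 counts against 24 and 26, did not pass either. Metallothionein genes are close copies of one another, and although only uniquely mapped reads were counted, the split of reads among them is uncertain.

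SLC30A1, the exporter that moves zinc out of the cell (chromosome 1, 211744910 to 211752503), was at 6.35 and 6.90 CPM with E2 plus (2R,6R)-HNK and at 2.32 and 2.12 CPM with E2 plus (2S,6S)-HNK. Its log2 fold change was 1.57 ± 0.12 (adjusted p = 4.43e-16). SLC39A10, which brings zinc into the cell (chromosome 2, 196440701 to 196602426), went the other way, at 21.9 and 21.3 CPM against 49.8 and 52.0 CPM, and its log2 fold change was -1.23 ± 0.05 (adjusted p = 3.11e-24). Every (2R,6R)-HNK library was above every (2S,6S)-HNK library for the exporter and below for the importer. MTF1 itself did not pass the test at 22.7 and 25 CPM against 24.6 and 24.6 CPM, and the 95% interval of its log2 difference was -0.16 to 0.07.

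**Figure D1:**
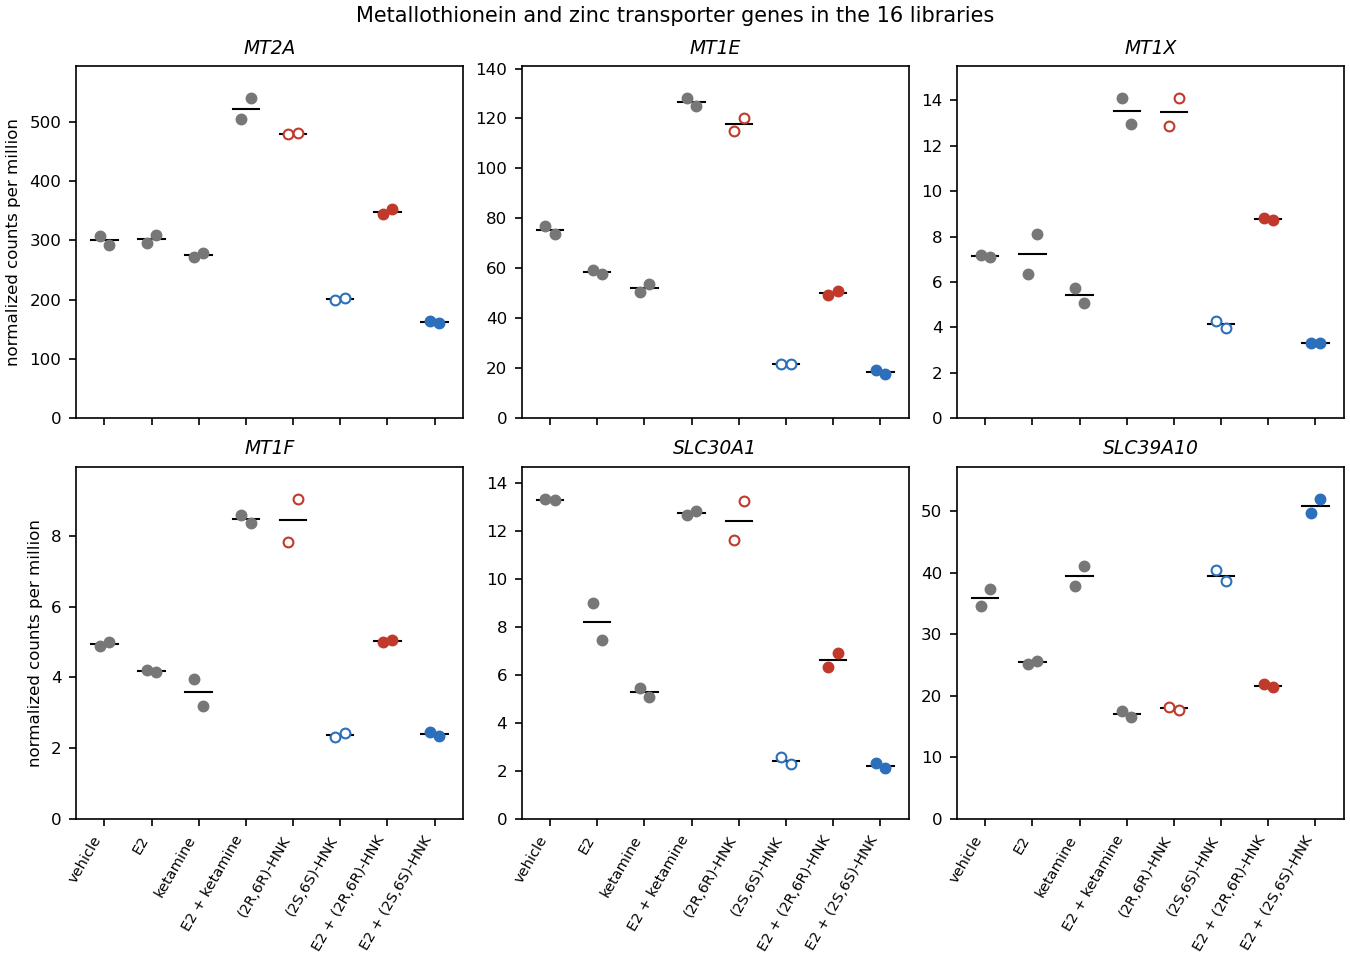
Normalized counts (CPM) of 6 zinc-handling genes (vertical axis, from 0) in the 16 libraries by treatment (horizontal axis), with 1 point per library and a bar at the mean of 2; red marks (2R,6R)-HNK, blue (2S,6S)-HNK, filled points E2, and grey the other treatments. MT2A, MT1E, MT1X, MT1F and SLC30A1 are higher and SLC39A10 lower with (2R,6R)-HNK than with (2S,6S)-HNK, with E2 and without it.

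The same genes differed in the same direction without E2, in 4 other libraries. There 405 of 16004 genes (2.53%) passed both limits, 163 (1.02%) higher and 242 (1.51%) lower with (2R,6R)-HNK. The number passing was 207 with DESeq2 on the libraries compared and 252 with at least 10 counts in every library. MT2A was at 479 and 482 CPM with (2R,6R)-HNK and at 199 and 202 CPM with (2S,6S)-HNK, a log2 fold change of 1.26 (adjusted p = 1.4e-36). The log2 fold changes without E2 were 2.44 for MT1E, 1.70 for MT1X, 1.83 for MT1F, 2.36 for SLC30A1 and -1.13 for SLC39A10. The enantiomer difference was thus larger without E2 for some of them, and this was tested as an interaction, the difference with E2 minus the difference without it. It was -1 ± 0.07 for MT1E (adjusted p = 6.13e-18), -0.79 for SLC30A1 (adjusted p = 0.000126), -0.76 for MT1F (adjusted p = 0.000473) and -0.16 for MT2A (adjusted p = 0.000703). For MT1X (-0.29, adjusted p = 0.119) and SLC39A10 (-0.10, adjusted p = 0.313) it did not pass, with 95% intervals of -0.60 to 0.02 and -0.26 to 0.06.

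Set beside E2 alone, the level with (2S,6S)-HNK was the one farther away. MT1E averaged 58.5 CPM with E2 alone, 50.1 CPM with E2 plus (2R,6R)-HNK and 18.4 CPM with E2 plus (2S,6S)-HNK. Against E2 alone its log2 fold change was -0.22 (adjusted p = 1.18e-05) with (2R,6R)-HNK and -1.66 (adjusted p = 5.89e-33) with (2S,6S)-HNK. For MT2A the same values were 0.20 (adjusted p = 2.18e-08) and -0.90 (adjusted p = 1.33e-30). For SLC39A10 they were -0.23 (adjusted p = 0.000561) and 1 (adjusted p = 7.4e-22). Both comparisons share the E2 libraries, and they cross the border between the sets of 6 and 10 libraries. Over all genes 50.5% and 55.1% passed the adjusted p in them. The zinc genes also varied between conditions without any HNK: MT2A averaged 523 CPM with E2 plus ketamine, 303 CPM with E2, 299.8 CPM with vehicle and 275 CPM with ketamine.

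Over the whole list of 34 metallothioneins and zinc transporters, 29 were tested, and 11 were higher and 5 lower with E2 plus (2R,6R)-HNK at an adjusted p under 0.05 with no limit on size, and 7 and 5 after the GC and length correction described below. Without E2, 8 were higher and 6 lower, where 21% and 22.4% of all genes were. Over all genes tested, 29.1% were higher and 25% lower with E2 by the same rule, and the median log2 fold change was 0.15 for the list and 0.01 for all genes. Among other transporters SLC30A9 was at 16.5 and 17.0 CPM against 24.9 and 24.3 CPM (log2 fold change -0.55, and -0.24 after the GC and length correction), and SLC39A6, an importer of the cell surface, at 37.8 and 39.6 CPM against 53.6 and 52.9 CPM (-0.46, and -0.24 after it). The importer gene SLC39A14 was at 187 and 194 CPM against 197 and 200.5 CPM (-0.06, adjusted p = 0.0542), and 8 of 16 alternatives called it lower, with adjusted p from 0.000145 to 0.433 over all of them.

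Beyond these genes the enantiomer difference under E2 was broad and small. With no limit on size, 8647 of 16004 genes (54%) passed the adjusted p, and the median absolute log2 fold change was 0.26. The 95% interval lay within -0.5 and 0.5 for 9442 genes (59%) and within -1 and 1 for 13300 genes (83.1%), so that for most genes a difference of 1 on the log2 scale is outside the interval. The groups of 2 libraries did not overlap for 11885 genes (74.3%), and this holds for each gene named here as higher or lower.

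This broad difference followed the GC content of the exons. Across the 15363 genes with a known exon sequence, log2 fold change under E2 and GC content had a Spearman correlation of 0.673, and 0.0367 without E2. Genes are not independent replicates, and within each comparison all points share the same 4 libraries. In the fifth of genes with the lowest GC content, 67.8% were lower and 0.456% higher with (2R,6R)-HNK, and in the fifth with the highest, 0.228% were lower and 61.5% higher. After a correction for GC content and length in each library, 4548 genes (28.4%) passed, 2528 (15.8%) higher and 2020 (12.6%) lower. With the limit of 1, 45 genes passed, 13 higher and 32 lower, and 36 of the 45 were among the 106. The log2 fold changes of the zinc genes were 0.98 for MT2A, 1.25 for MT1E, 1.27 for MT1X, 0.87 for MT1F, 1.81 for SLC30A1 and -0.96 for SLC39A10 after it, so that MT2A, MT1F and SLC39A10 still passed the adjusted p but fell short of the limit of 1. The part of GC content in the differences below was not tested, and each gene group is given before and after the correction. The shares to read the counts against are 29.1% of all genes higher and 25% lower as counted, and 15.8% and 12.6% after the correction. Without E2 they are 21% and 22.4%.

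**Figure D2:**
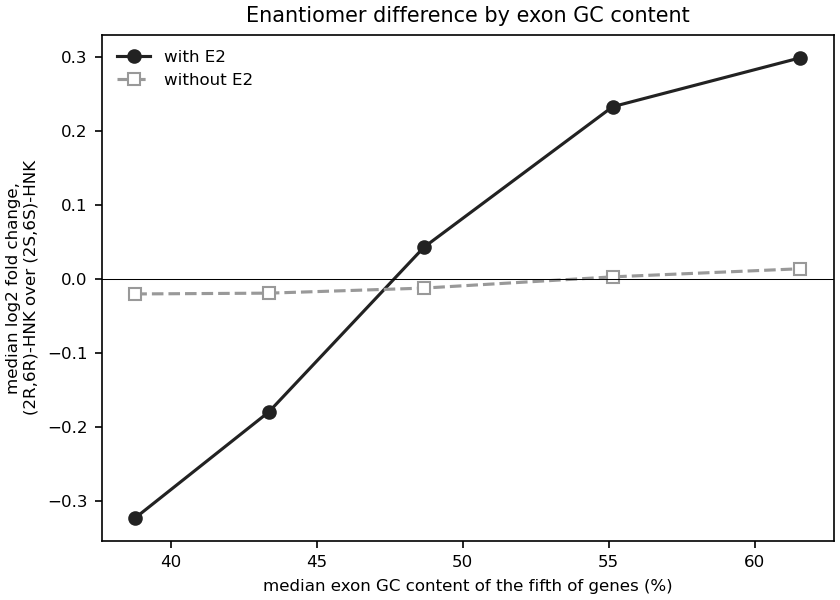
Median log2 fold change of (2R,6R)-HNK over (2S,6S)-HNK (vertical axis) in 5 equal groups of genes ordered by exon GC content (horizontal axis, median of each group in %), with E2 (filled points) and without E2 (open squares). The median rises from -0.32 to 0.30 with E2 and stays between -0.02 and 0.01 without it.

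Nuclear long noncoding RNAs and splicing factors stood out by their direction: 26 of 30 tested (86.7%, against 25% of all genes) were lower and 0 higher with E2 plus (2R,6R)-HNK, with a median log2 fold change of -0.32. After the correction 18 were lower and 1 was higher. MALAT1, a noncoding RNA of nuclear speckles, was at 107 and 112 CPM against 164 and 212 CPM (log2 fold change -0.78, adjusted p = 1.46e-11). Its size varied from -0.95 to -0.59 when 1 library was left out. NEAT1, the scaffold of paraspeckles, was at 41.9 and 42.8 CPM against 70.2 and 66.3 CPM (-0.69, adjusted p = 7.11e-19), and the splicing factor gene SRSF10 at 44.5 and 41.1 CPM against 60.4 and 62.9 CPM (-0.53, adjusted p = 4.02e-15, and -0.19 after the correction). For all 3 the groups did not overlap. Without E2 the list was mixed, with 13 higher and 7 lower, where 21% of all genes were higher and 22.4% lower. MALAT1 was lower with (2R,6R)-HNK there too (-1.09), whereas NEAT1 (0.15) and SRSF10 (0.32) were higher, and the interaction was -0.84 for NEAT1 (adjusted p = 1.87e-16) and -0.85 for SRSF10 (adjusted p = 9.25e-17).

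Heat shock proteins and chaperones, which keep other proteins folded, were lower with E2 plus (2R,6R)-HNK for 19 of 34 (55.9%, against 25% of all genes) and higher for 10, and 19 were lower and 4 higher after the correction. The cytosolic chaperone HSP90AA1 was at 606 and 623 CPM against 853 and 881 CPM (log2 fold change -0.50, adjusted p = 6.03e-24). The cochaperone gene DNAJA1 was at 83.2 and 81.3 CPM against 114 and 115 CPM (-0.48, adjusted p = 8.07e-18, and -0.23 after the correction). DNAJB4 was at 10.7 and 11.4 CPM against 16.2 and 17.7 CPM (-0.62, and -0.27 after it). Without E2 the list turned: 24 were higher and 3 lower with (2R,6R)-HNK, where 21% and 22.4% of all genes were, and the difference between both comparisons passed the test for 26 of the 34, with 22 negative (over all genes 25.8% were positive and 21.5% negative). DNAJA1 had an interaction of -0.98 (adjusted p = 1.12e-23). Not all chaperones followed, since CRYAB, a small heat shock protein gene, was at 10.6 and 9.82 CPM against 7.39 and 6.97 CPM (0.50), and the collagen chaperone SERPINH1 at 507 and 509 CPM against 379 and 366 CPM (0.45, and 0.21 after the correction).

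Genes of complement and MHC class I, which tag microbes and present peptides to T cells, were higher with E2 plus (2R,6R)-HNK for 14 of 31 (45.2%, against 29.1% of all genes) and lower for 5, and for 10 and 2 after the correction. SERPING1, the inhibitor of the first complement component, was at 7.23 and 7.54 CPM against 5.31 and 4.48 CPM (log2 fold change 0.59, adjusted p = 1.1e-05). The peptide transporter gene TAP1 was at 30.9 and 35.8 CPM against 25.6 and 25.3 CPM (0.39, adjusted p = 1.97e-07, and 0.21 after the correction). B2M, the light chain of MHC class I, went the other way at 204 and 206 CPM against 243 and 259 CPM (-0.29, and -0.05 with adjusted p = 0.113 after the correction). Without E2, 1 member was higher and 14 were lower with (2R,6R)-HNK, where 21% of all genes were higher and 22.4% lower. SERPING1 had an interaction of 1.39 (adjusted p = 5.16e-10).

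The interferon pathway was a main subject of the study. Type I interferon acts through the kinases JAK1 and TYK2 and the STAT factors on antiviral genes. Of 51 interferon-stimulated genes tested, 11 (21.6%) were higher and 13 (25.5%) lower, both near or below the share of all genes, with a median log2 fold change of -0.06, and 10 were higher and 3 lower after the correction. Without E2, 17 were higher and 6 lower with (2R,6R)-HNK, where 21% and 22.4% of all genes were. MX1, an antiviral GTPase gene, was at 3.08 and 2.72 CPM with E2 plus (2R,6R)-HNK against 2.02 and 2.15 CPM (0.48 ± 0.17, adjusted p = 0.0148). After the correction it was 0.39 and lost its call (adjusted p = 0.0682). The call was also lost without replicate 1 of either group and with DESeq2 on the 4 libraries. Leaving out 1 library gave 0.39 to 0.57. IFITM3, which blocks virus entry, was at 157 and 161 CPM against 120.2 and 119 CPM (0.41, adjusted p = 2.67e-16, and 0.18 after the correction). DDX58, the sensor of viral RNA also called RIG-I, was lower at 2.40 and 1.72 CPM against 3.23 and 2.94 CPM (-0.58, adjusted p = 0.00169). After the correction DDX58 was at -0.36 and did not pass (adjusted p = 0.0832). Without replicate 2 of E2 plus (2R,6R)-HNK it was also -0.36 and lost its call, and leaving out 1 library at a time gave -0.85 to -0.36. Without E2, DDX58 was higher with (2R,6R)-HNK (0.56, adjusted p = 0.00375), and its interaction was -1.14 (adjusted p = 3.48e-05). MX1 was higher there too (0.39, adjusted p = 0.0347), and IFITM3 did not pass there (-0.07, adjusted p = 0.0749, interaction 0.48). With E2, MX2 (0.55, 95% interval -0.14 to 1.25) and OAS1 (-0.54, 95% interval -1.16 to 0.09, and -0.72 to -0.30 leaving out 1 library) lay below 1 CPM and did not pass.

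Among 42 signaling genes of the same pathway 18 (42.9%) were higher and 14 (33.3%) lower, where 29.1% and 25% of all genes were, and 9 and 7 after the correction. Without E2, 7 were higher and 14 lower. STAT3 was at 199 and 192 CPM with E2 plus (2R,6R)-HNK and at 162 and 161 CPM with E2 plus (2S,6S)-HNK (log2 fold change 0.28 ± 0.03, adjusted p = 5.83e-12, and 0.23 after the correction). Without E2 it went the other way at 152 and 149 CPM against 189 and 191 CPM (-0.34), and the interaction was 0.61 (adjusted p = 5.63e-18). STAT5A was at 9.44 and 9.57 CPM against 6.51 and 6.14 CPM (0.58, adjusted p = 8.52e-07, and 0.33 after the correction). The receptor gene LIFR was lower at 14.5 and 15.9 CPM against 23.4 and 21.9 CPM (-0.58, and -0.29 after the correction). The kinase gene JAK2 was lower too, at 5.82 and 5.21 CPM against 7.63 and 7.40 CPM (-0.45, adjusted p = 0.000416). After the correction JAK2 was at -0.14 and did not pass (adjusted p = 0.373). SOCS3, a feedback inhibitor of the pathway, was at 49.8 and 47.3 CPM against 39.2 and 36.6 CPM (0.36, and 0.10 after the correction), and its value without E2 was 0.35, with an interaction of 0.01. IRF7 was at 45.3 and 44.5 CPM against 37.3 and 35.6 CPM (0.30), a direction that turned to -0.02 after the correction, and IRF9 at 26.7 and 24.3 CPM against 22.8 and 22.5 CPM (0.17, and 0.01 after it). The call for IRF9 was also lost without replicate 1 of E2 plus (2R,6R)-HNK (0.10, adjusted p = 0.257), without replicate 2 of E2 plus (2S,6S)-HNK (0.16, adjusted p = 0.0582) and with DESeq2 on the 4 libraries (adjusted p = 0.0967). SIN3A, a corepressor gene, did not pass (-0.06, 95% interval -0.14 to 0.01), nor did JAK3 (0.17) or SOCS1 (0.21), and all 3 values changed sign after the correction (0.04, -0.09 and -0.10). For SIN3A, 3 of 16 alternatives gave a lower call (lowest adjusted p = 0.0318), and leaving out 1 library moved its value from -0.019 without replicate 1 of E2 plus (2R,6R)-HNK to -0.11 without replicate 2 of it. For SOCS1 it gave -0.26 to 0.70, so that its sign rests on single libraries.

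The elongation factor gene EEF2 was at 5740 and 5785 CPM with E2 plus (2R,6R)-HNK against 4400 and 4309 CPM with E2 plus (2S,6S)-HNK (log2 fold change 0.40 ± 0.02, adjusted p = 4.26e-24). After the correction it was 0.14. The gene of its kinase, EEF2K, was at 54.3 and 51.5 CPM against 42.5 and 42.9 CPM (0.31, and 0.22 after the correction). Both were lower with (2R,6R)-HNK without E2, by -0.15 and -0.30. In their list of mTOR signaling and elongation genes, 17 of 29 (58.6%) were higher and 8 (27.6%) lower, where 29.1% and 25% of all genes were, and 9 and 6 after the correction, and 9 and 9 without E2. RPTOR, the scaffold of mTOR complex 1, was at 150.1 and 148 CPM against 114 and 111 CPM (0.41), and RICTOR, that of the other mTOR complex, at 18.4 and 16.8 CPM against 25.4 and 25.9 CPM (-0.54). The exons of RPTOR have a GC content of 57.2% and those of RICTOR of 36.2%, and after the correction the values were 0.14 and -0.20.

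Of 31 tested genes of glutamate receptors and synaptic plasticity, 8 (25.8%) were higher and 4 (12.9%) lower, both below the shares of all genes (29.1% and 25%), and 3 and 4 after the correction. Without E2, 2 were higher and 9 lower. DLG4, which encodes the postsynaptic scaffold PSD-95, was at 41.7 and 38.2 CPM against 29.8 and 30.9 CPM (log2 fold change 0.40, adjusted p = 1.34e-07, and 0.15 after the correction). Without E2 it was lower with (2R,6R)-HNK (-0.66), and the interaction was 1.06 (adjusted p = 1.35e-14). BDNF, a neurotrophin gene, was lower at 24.3 and 23.5 CPM against 29.9 and 27.9 CPM (-0.28, and -0.23 after the correction), and lower by -0.21 without E2. SYN1 did not pass (-0.18, 95% interval -0.82 to 0.46), and leaving out 1 library gave -0.87 to 0.29. Among estrogen receptors ESR2 and the membrane receptor gene GPER1 were both below 1 CPM and did not pass, with 95% intervals of -1.40 to 0.40 and -0.24 to 0.88. Leaving out 1 library gave -0.93 to 0.06 for ESR2 and 0.18 to 0.50 for GPER1. ESR1 had too few reads to be tested. Of the 28 tested genes in the list of estrogen receptors and responsive genes 7 (25%) were higher and 4 (14.3%) lower, again below the shares of all genes, and 3 and 2 after the correction, and 6 and 6 without E2. The higher ones were led by the lysosomal protease gene CTSD at 382 and 382 CPM against 287 and 274 CPM (0.45, and 0.13 after the correction).

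Extracellular matrix genes were higher with E2 plus (2R,6R)-HNK for 31 of 59 (52.5%, against 29.1% of all genes) and lower for 6, and for 19 and 7 after the correction. Without E2, 14 were higher and 27 lower with (2R,6R)-HNK, where 21% and 22.4% of all genes were. Beside this, the summed level of 14 fibroblast and pericyte markers was 26520 to 26740 CPM with E2 plus (2R,6R)-HNK and 22900 to 23430 CPM with E2 plus (2S,6S)-HNK, 8 of them higher and 0 lower, with COL3A1, DCN and LUM below 1 CPM. Most of that sum is FN1 (mean 16560 CPM) and COL1A1 (mean 4108 CPM), and COL1A1, COL1A2, COL3A1, COL6A1, DCN, LUM and FN1 are in the matrix list too, so the sum is not a separate reading. Marker sums of other cell types also stood apart, higher for epithelial (458.2 to 471.7 against 390 to 396.7 CPM), neuron and endothelial markers. They were lower for microglia (92.03 to 95.95 against 108.6 to 108.8 CPM), astrocyte (126.3 to 126.8 against 155.4 to 161 CPM) and oligodendrocyte markers. The part of any of these markers in the result was not tested. The collagen-modifying enzyme gene PLOD1 was at 219 and 218 CPM against 168 and 162 CPM (log2 fold change 0.40, and 0.16 after the correction), and the proteoglycan gene BGN at 143 and 148 CPM against 114 and 109 CPM (0.38, and 0.12 after it). COL11A1 was at 182 and 182 CPM against 212 and 213 CPM (-0.22, and -0.14 after it), and far more apart without E2, at 76.4 and 78.8 CPM against 165 and 163 CPM (-1.08, interaction 0.86, adjusted p = 1.23e-20).

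The lists of metabolism are read against the 29.1% of all genes that were higher and the 25% that were lower. Of 40 glycolysis and hypoxia genes 21 (52.5%) were higher and 7 (17.5%) lower, and 18 and 7 after the correction, led by CA9, a carbonic anhydrase known to respond to hypoxia, at 7.26 and 8.17 CPM against 3.60 and 4.73 CPM (log2 fold change 0.90 ± 0.13, adjusted p = 3.26e-08). Without E2, 10 were higher and 23 lower, where 21% of all genes were higher and 22.4% lower. Of 39 cholesterol and fatty acid synthesis genes 23 (59%) were higher and 14 (35.9%) lower, and 14 and 6 after the correction, against 5 higher and 24 lower without E2, to be read against the same 21% and 22.4%. FASN, the fatty acid synthase gene, was at 3016 and 3045 CPM against 2381 and 2219 CPM (0.40, and 0.06 after the correction), whereas IDI1, an isomerase gene of cholesterol synthesis, was at 63.8 and 63.4 CPM against 89.4 and 92 CPM (-0.51, and -0.33 after the correction). Of 63 respiratory chain subunits 29 (46%) were higher and 18 (28.6%) lower, and 28 and 14 after the correction, against 33 higher and 2 lower without E2. Of 77 cytosolic ribosomal proteins 38 (49.4%) were higher and 27 (35.1%) lower, and 30 and 29 after it and 24 and 18 without E2, with RPS2 at 4327 and 4139 CPM against 3156 and 3117 CPM (0.43, and 0.20 after the correction) and RPL7 at 746 and 743 CPM against 1065 and 1109 CPM (-0.55). Ribosomal protein genes have many processed copies, to which some of their reads may belong.

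The cell cycle list was close to even. Of 53 cell cycle genes 22 (41.5%) were higher and 23 (43.4%) lower, and 16 and 16 after the correction and 29 and 18 without E2, with CDK1, the mitotic kinase gene, at 86.3 and 85.3 CPM against 125 and 136 CPM (log2 fold change -0.60, and -0.19 after the correction). Of 42 ATF4 and unfolded protein response genes 20 (47.6%) were higher and 15 (35.7%) lower, and 7 and 7 after the correction, and 14 and 20 without E2. Of 45 p53 and NRF2 targets 22 (48.9%) were higher and 13 (28.9%) lower, and 10 and 8 after it, and 20 and 9 without E2. Of 47 immediate early, C/EBP and clock genes 23 (48.9%) were higher and 7 (14.9%) lower, and 5 and 6 after it, so that their direction did not hold, and 11 and 16 without E2. Within this list KLF2, a zinc finger factor gene, was lower at 4.44 and 4.11 CPM against 7.52 and 6.07 CPM (-0.68, and -0.95 after the correction). Of 42 actin and YAP target genes 25 (59.5%) were higher and 14 (33.3%) lower, and 18 and 12 after the correction, and 13 and 19 without E2. Of 44 prostanoid and growth factor genes 11 (25%) were higher and 9 (20.5%) lower, and 6 and 6 after it and 13 and 9 without E2. Of 38 cytokine genes 8 (21.1%) were higher and 5 (13.2%) lower, and 2 and 2 after it and 11 and 7 without E2. With E2 and before the correction all 4 shares of these lists were below those of all genes. Of 50 histone genes 6 (12%) were higher and 0 lower, and 1 and 1 after it, and 9 and 2 without E2.

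**Figure D3:**
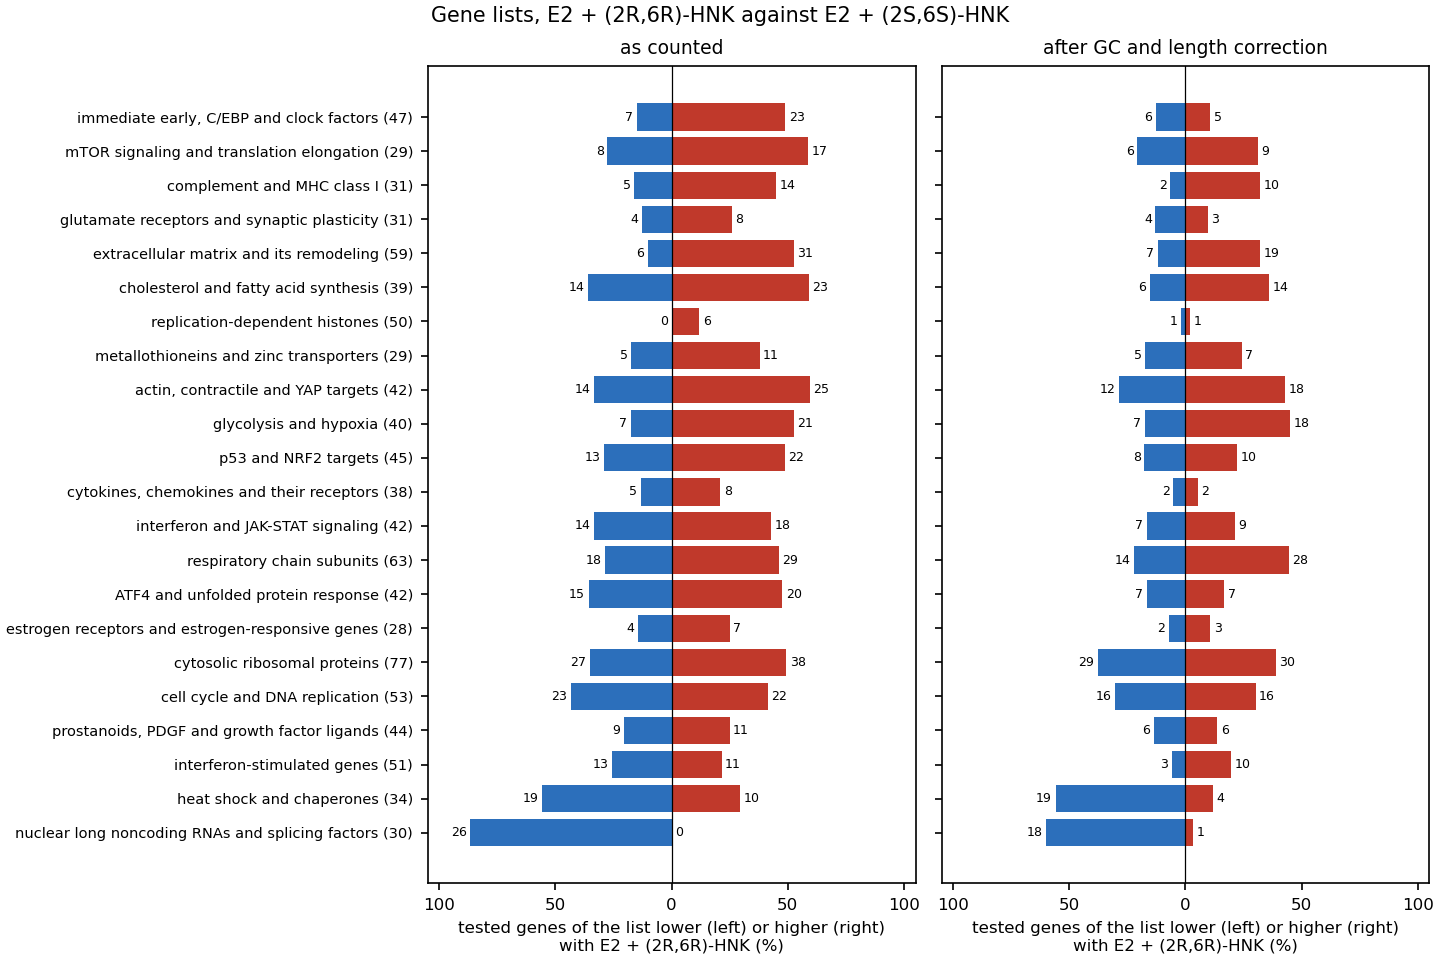
Share of the tested genes of each list (number in parentheses) that were lower (left, blue) or higher (right, red) with E2 plus (2R,6R)-HNK than with E2 plus (2S,6S)-HNK at an adjusted p under 0.05, in % on the horizontal axis, as counted and after GC and length correction, with the number of genes at each bar. Nuclear noncoding RNAs and splicing factors have 26 lower and 0 higher as counted, and 18 lower and 1 higher after the correction.

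Whether the enantiomer difference depended on E2 was tested gene by gene. The interaction passed the adjusted p and a log2 difference of at least 1 for 526 of 16004 genes (3.29%), 345 (2.16%) positive and 181 (1.13%) negative. After the GC and length correction 381 passed, 225 positive and 156 negative. The largest positive values among genes that averaged 5 CPM or more over the 8 HNK libraries, a mean that a gene high in 1 group can pass through that group, belonged to IGFBP5, a secreted binder of insulin-like growth factors (2.43 ± 0.11, adjusted p = 9.1e-24), KCNAB2, a potassium channel subunit gene (2.23), TNXB, a matrix glycoprotein gene (1.92), the lipid transporter gene ABCA3 (1.81), the adhesion gene KIRREL3 (1.78) and CA9 (1.77). The largest negative values belonged to CYP1B1, an enzyme of estrogen and xenobiotic oxidation that averaged 3.78 CPM in the 4 libraries with E2 (-1.84 ± 0.16, adjusted p = 5.85e-14), IGFN1 (-1.67), the carboxypeptidase gene CPA4 (-1.61), ID3, an inhibitor of helix-loop-helix factors (-1.35), RPP40, a ribonuclease P subunit gene (-1.33), and CRISPLD2 (-1.29). TNXB has a near copy in the genome, and its exons overlap CYP21A2 on the other strand. CYP1B1, KIRREL3, CA9 and KCNAB2, and likewise DLG4, BDNF, RICTOR and IDI1, overlap genes on the other strand. So do others given here, among them HSP90AA1, CRYAB, STAT5A, LIFR, TAP1 and MX1. Whether strand was used in counting is not given in the sources used here, and without it reads of such pairs cannot be told apart.

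In IGFBP5, CPA4 and ID3 the libraries of (2R,6R)-HNK without E2 stood apart, and the enantiomers differed by less under E2. IGFBP5 was at 35.1 and 35.4 CPM with E2 plus (2R,6R)-HNK and 33.1 and 30.2 CPM with E2 plus (2S,6S)-HNK, and at 6.43 and 7.59 CPM against 34.2 and 33.3 CPM without E2. CPA4 was at 54.9 and 58.5 CPM against 65.2 and 65.3 CPM under E2 and at 184 and 191 CPM against 71.4 and 70.2 CPM without it. ID3 was at 9.35 and 9.29 CPM against 8.71 and 7.45 CPM under E2 and at 31.9 and 30.0 CPM against 10.2 and 10.9 CPM without it. For ID3 the call under E2 was lost after the correction (0.01) and without either (2R,6R)-HNK replicate or without replicate 2 of E2 plus (2S,6S)-HNK, among others. In each of the 3 genes the 2 libraries of (2R,6R)-HNK without E2 lay outside the range of the other 6. The remaining conditions sided with those 2: IGFBP5 averaged 8.24 CPM with vehicle, 8.84 CPM with E2, 10.7 CPM with ketamine and 12 CPM with E2 plus ketamine, and CPA4 averaged 286 CPM with vehicle and 222 CPM with E2. For 11 of the 12 genes the 6 libraries of (2S,6S)-HNK and both combinations with E2 did not overlap the other 10 libraries, CA9 being the exception. The same held for 186 of the 526 genes (35.4%), and for 7.51% of all genes tested. The interaction can pass where any single HNK group stands apart or the order turns, and (2R,6R)-HNK without E2 standing apart is among these patterns. These counts therefore describe the genes chosen and are not support for the split. The split was seen in the values and is not one of the groups of the design.

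**Figure D4:**
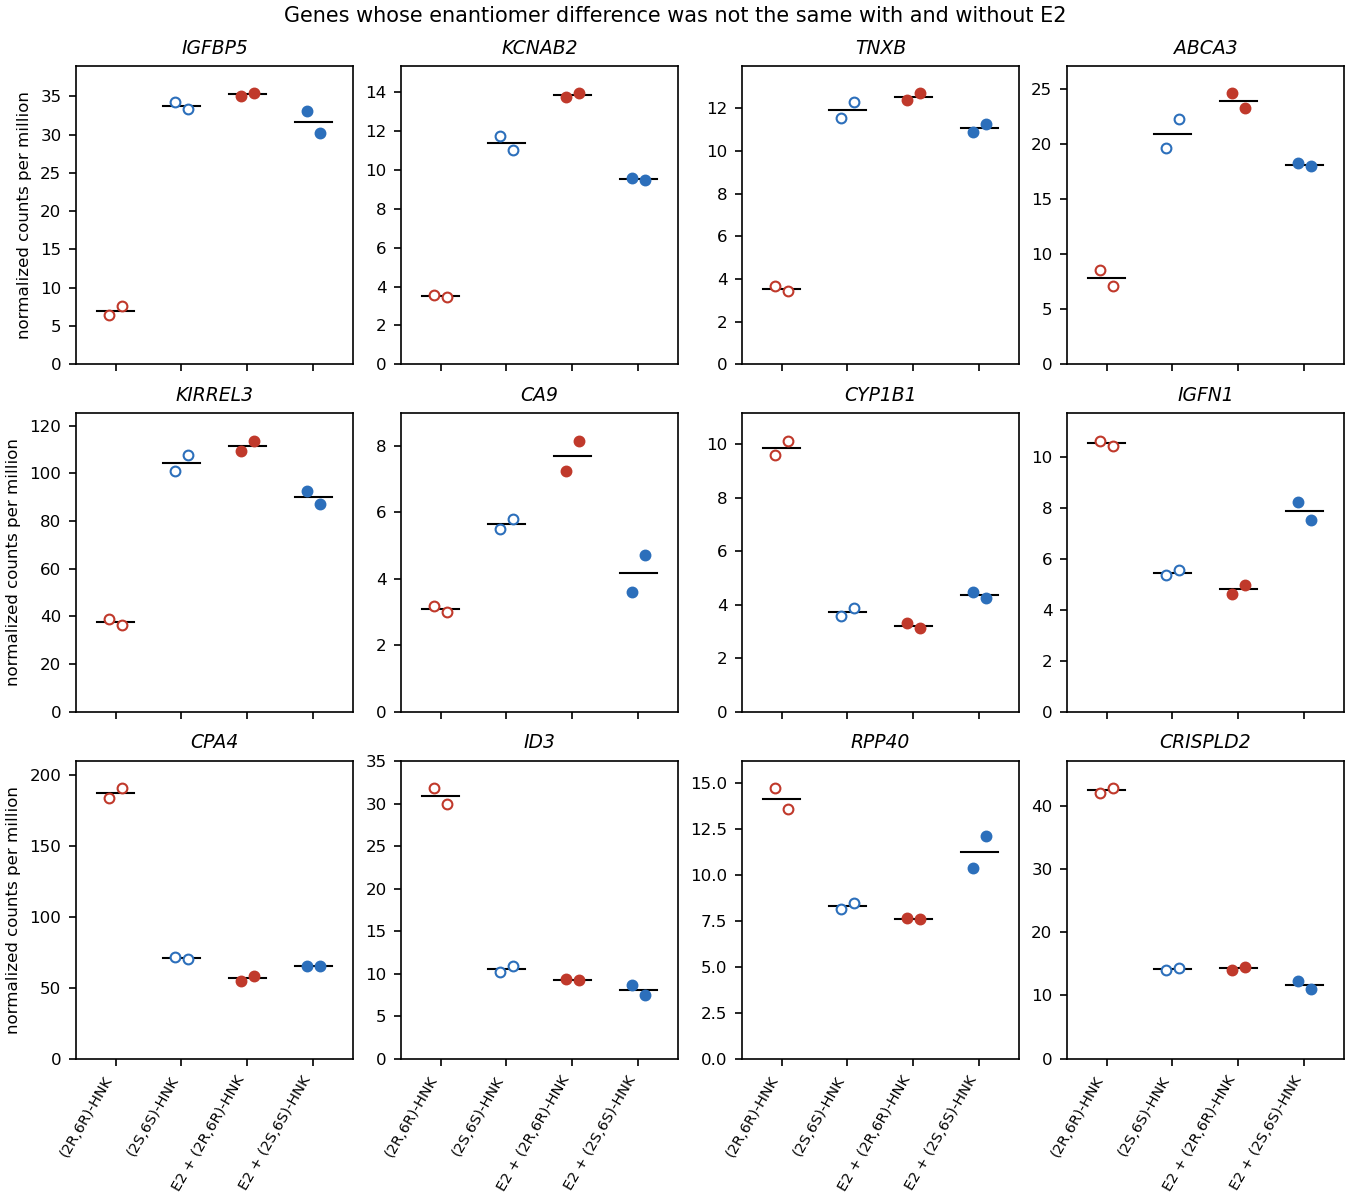
Normalized counts (CPM, vertical axes, from 0) of 12 genes in the 8 libraries of both HNK enantiomers. They have the largest dependence of the enantiomer difference on E2 among genes averaging 5 CPM or more over these libraries. Red marks (2R,6R)-HNK, blue (2S,6S)-HNK, open points without E2, filled points with E2, and bars the mean of 2 libraries. In IGFBP5 and CPA4 the open red points of (2R,6R)-HNK without E2 lie apart from the other 6 libraries.

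Across the 15363 genes, the log2 fold changes with and without E2 had a Spearman correlation of 0.0366, and 0.0225 after the correction, in comparisons that share no library. Over all genes the direction and order of the enantiomer differences with E2 thus said little of those without it. MT2A, MT1E, MT1X and SLC39A10 passed both limits in the same direction in both comparisons. In KIRREL3 and COL11A1, by contrast, the difference without E2 (-1.47 and -1.08) was larger than under E2 (0.31, which was 0.07 and lost its call after the correction, and -0.22).

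**Figure D5:**
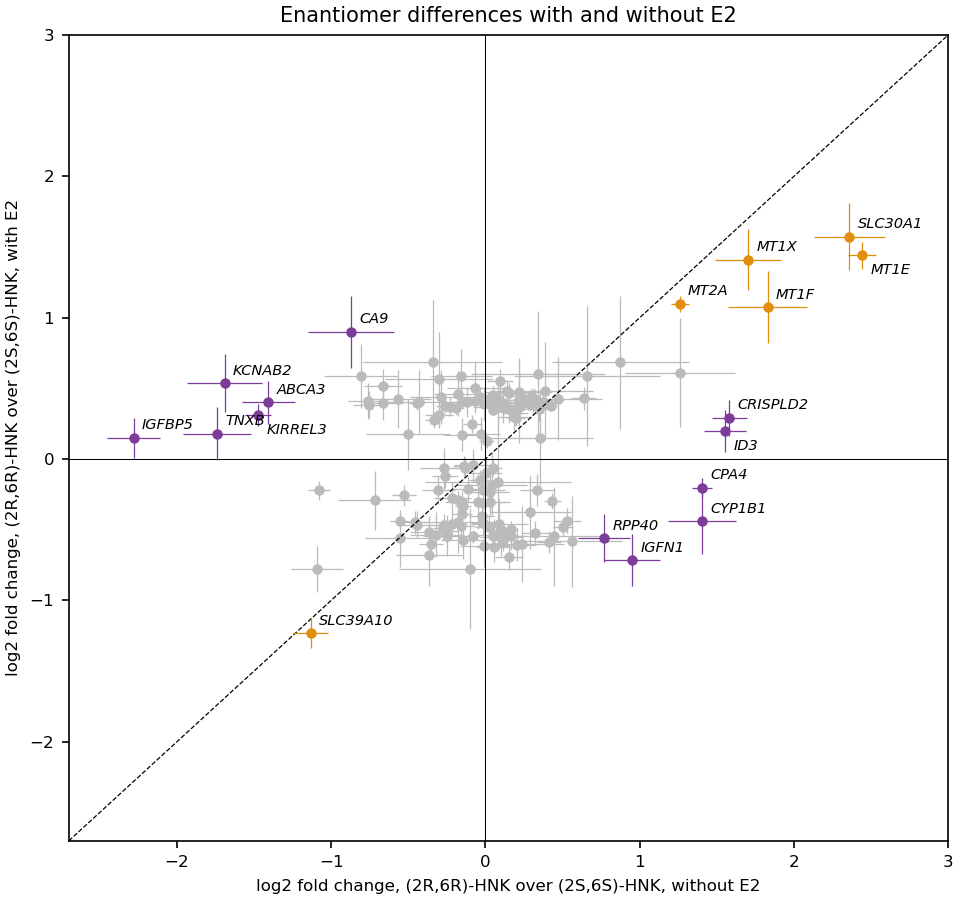
Log2 fold change of (2R,6R)-HNK over (2S,6S)-HNK with E2 (vertical axis) against that without E2 (horizontal axis) for the named genes with a mean of at least 1 CPM, with 95% intervals as bars; orange marks zinc-handling genes, purple the genes with the largest dependence on E2, and the dashed line equal differences. MT2A lies near the dashed line at 1.1 with E2 and 1.26 without it, MT1E lies at 1.44 and 2.44, and IGFBP5 lies near 0 with E2 and at -2.28 without it.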

How the data were processed

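HMC3 cells were profiled by RNA-seq in 16 libraries, 2 for each of 8 treatments, from cDNA amplified with the Ovation RNA-Seq System V2. The authors deposited raw counts of uniquely mapped read pairs per gene. The submitters' processing notes name TopHat2 2.0.14, Bowtie2 2.2.6, featureCounts 1.4.6 and hg19. Every row of the table named a gene.

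Counts were analysed in R 4.3.3 with edgeR 4.0.16 (TMM scaling, filterByExpr, quasi-likelihood test, Benjamini-Hochberg adjustment over the 16004 genes tested). A mean was fitted for each of the 8 groups in all 16 libraries, which left 8 residual degrees of freedom. Levels are TMM-scaled counts (CPM), not corrected for gene length. Levels of different genes are therefore set side by side only for cell markers, as a rough guide. Fold changes are (2R,6R)-HNK over (2S,6S)-HNK. A gene was called at an adjusted p under 0.05, with or without a log2 limit of 1. Intervals are 95% intervals of the fitted value. Libraries held 55300614 to 81646165 counts, and precision was lowest for genes below 1 CPM.

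Named genes were those past both limits at 5 CPM or more on average, with no overlap between libraries, up to 3 higher and 3 lower called genes of at least 1 CPM in each of 22 lists, genes of the study's subject, and the 6 highest and 6 lowest interactions at 5 CPM or more; of these, examples are given, and 3 genes are not reported here. MT1F, SLC30A1 and the remaining zinc genes were taken from their list. The members and lists were chosen with earlier results of these data known.

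For the GC and length correction, a loess curve (span 0.5) of each library's deviation from the mean log2 CPM was fitted over GC content and exon length and entered as an offset, for genes with a known exon sequence. Exon sequences are from GRCh37 and promoters from RefSeq. Alternatives were DESeq2 1.42.0, other scalings, filters and limits, thinned counts, a replicate block and leaving out each library. In simulated counts of 16004 genes, 100 genes were changed by 1 and 100 by 0.5 on the log2 scale. For the comparison under E2, edgeR recovered 100% and 98% of them, with 9 false calls. For the interaction it recovered 100% and 91%, with 11 false calls. Recovery did not require the log2 limit of 1, since genes changed by 0.5 were counted too. Far fewer genes were changed than differed in the data, where 54% passed the adjusted p under E2. The rates cannot be carried over to genes below 1 CPM, where the median SE under E2 was 0.51. Of the 106 calls past the limit, 96 lay there.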

Additional observations from a re-analysis of the deposited data

Results flagged for a closer look

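By the interaction term of the edgeR quasi-likelihood fit, the enantiomer difference with E2 differed from that without E2 at an adjusted p below 0.05 for 7558 of 16004 genes (47.2%). The 13 given here, each as a log2 difference, are the 6 largest positive and 6 largest negative values among genes that averaged 5 CPM or more over the 8 HNK libraries, and MT1E. The positive values were 2.43 for IGFBP5 (adjusted p = 9.1e-24), 2.23 for KCNAB2 (8.64e-17), 1.92 for TNXB (6.12e-16), 1.81 for ABCA3 (2.07e-18), 1.78 for KIRREL3 (2.94e-29) and 1.77 for CA9 (2.94e-11). In all 6 the difference was negative without E2 and its estimate positive with E2, from 0.15 for IGFBP5, which did not pass the test there (adjusted p = 0.067), to 0.90 for CA9. For IGFBP5, 4 of 16 alternatives passed under E2 (lowest adjusted p = 0.0304), leaving out 1 library gave 0.089 without replicate 2 to 0.22 without replicate 1 of E2 plus (2S,6S)-HNK, and the corrected value was 0.0054. For TNXB, which did not pass there either, the estimate with E2 turned to -0.17 after the GC and length correction. The negative values were -1.84 for CYP1B1 (5.85e-14), -1.67 for IGFN1 (1.5e-15), -1.61 for CPA4 (3.44e-31), -1.35 for ID3 (5.24e-16), -1.33 for RPP40 (1.85e-13), -1.29 for CRISPLD2 (7.1e-18) and -1.003 for MT1E (6.13e-18). IGFN1 was at 4.63 and 4.98 CPM with E2 plus (2R,6R)-HNK against 8.23 and 7.51 CPM with E2 plus (2S,6S)-HNK, and at 10.6 and 10.4 CPM against 5.35 and 5.56 CPM without E2, so that its order turned. MT1E kept its direction with and without E2.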

How the results depend on the processing

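The 6 zinc genes MT2A, MT1E, MT1X, MT1F, SLC30A1 and SLC39A10 kept direction and an adjusted p under 0.05 under every alternative run. Of 146 named genes called under E2, 95 did so. The GC and length correction lost 38 calls and reversed 11, and the cause was not tested. Genes below 1 CPM make up most calls past the log2 limit of 1. The number of calls under E2 was 106, and 52 with DESeq2 on all libraries, 29 with DESeq2 on the 4 libraries, 35 with at least 10 counts in every library, 45 after the GC and length correction and 388 with a limit of 1.5-fold. With no limit it was 4548 after the correction. Without E2 it was 207 with DESeq2 on the libraries compared, 252 with at least 10 counts and 1121 with a limit of 1.5-fold, and for the interaction 1895 with a limit of 1.5-fold. Leaving out 1 library at a time gave 94 to 135 under E2, 7514 to 8034 with no limit, 357 to 380 without E2, 493 to 566 for the interaction and 7981 to 9076 genes with an interval within -0.5 and 0.5. Of the 106 genes, 45 to 51 were called again in each of these.

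Same-numbered libraries of both enantiomers did not deviate together (correlation -0.01 across genes, and 0.03 across the 10701 more abundant ones). With so few libraries this cannot show whether the numbers mark a shared culture, day or lane, which the sources do not say. The main fit did not pair them. With the replicate block 101 genes were called under E2, 98 of them among the 106, and 0 calls of named genes changed. With the GC and length correction plus the replicate block 44 were called, and 4532 with no limit.

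After the GC and length correction, without and with the block, the log2 fold change under E2 had the opposite sign to the uncorrected one for 13 named genes that passed the adjusted p before or after it, 0.0144 and 0.0143 for CD46, 0.0441 and 0.0454 for CD55, 0.0458 and 0.0456 for NCOA3, 0.0125 and 0.0126 for CAMK2D, 0.0532 for PLOD2, 0.061 and 0.0613 for HAS2, -0.0211 and -0.0215 for IRF7, 0.1091 and 0.1092 for SLC30A5, 0.2201 and 0.2203 for SLC30A6, 0.1375 and 0.1371 for SLC30A7, -0.0487 and -0.0489 for SLC39A7, 0.1009 and 0.1011 for SLC39A9 and -0.0443 and -0.0444 for SLC39A13, and the cause was not tested. SIN3A, SOCS1, JAK3, TNXB, SLC30A3 and SLC30A4, which passed neither before nor after it, also changed sign.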
